A study of Mus musculus with 25 samples.

Results

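The POU class 3 and class 4 genes encode brain transcription factors, and their levels were followed in the mammillary neuroepithelium of Lhx5 mutant and wild type mouse embryos. The family was taken by gene symbol and held 7 genes: Pou3f1, Pou3f2, Pou3f3, Pou3f4, Pou4f1, Pou4f2 and Pou4f3. Of these, 6 were each measured by 1 transcript cluster, the probe set of a gene on the Affymetrix Mouse Gene ST array, among 28940 tested clusters and 18820 named genes. Pou4f2 had no cluster carrying its symbol alone and was not analysed here.

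The arrays were hybridised with RNA from embryos of the C57BL/6 strain at E10.5, 1 array per sample. The 13 KO arrays came from embryos homozygous for a floxed Lhx5 allele (Lhx5 fl/fl) that had not been recombined by Cre, so all exons were kept and the allele is a hypomorph of the whole embryo. The 12 WT arrays came from wild type embryos. The labels call the samples biological replicates, without giving litters or the number of embryos in each sample. Values are log2 expression values made by robust multiarray averaging (RMA), so a difference of 1 is a doubling.

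POU factors bind DNA through a POU-specific domain and a homeodomain joined by a flexible linker, and many of them recognise an octamer sequence. The class 3 genes, also called Oct6 (Pou3f1), Brn2 (Pou3f2), Brn1 (Pou3f3) and Brn4 (Pou3f4), are made in neural progenitors and young neurons, where their proteins often act beside SOX proteins, and Pou3f2 is required for the neuroendocrine neurons of the hypothalamus. The class 4 genes, the Brn3 group, act in neurons and sensory cells that have left the cell cycle: Pou4f1 in sensory ganglia, habenula and midbrain, Pou4f2 in retinal ganglion cells and Pou4f3 in inner ear hair cells.

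RefSeq promoters on the GRCm38.p6 assembly were matched by symbol for 5 of the 7 genes. The 250 bases before the transcription start are given for Pou3f3 and Pou3f4, which varied together, and for Pou3f2, which varied with the mean of progenitor genes. Capitals mark matches to the 6 motifs searched on both strands.
Pou3f2 (chr4:22488367-22488616, minus strand): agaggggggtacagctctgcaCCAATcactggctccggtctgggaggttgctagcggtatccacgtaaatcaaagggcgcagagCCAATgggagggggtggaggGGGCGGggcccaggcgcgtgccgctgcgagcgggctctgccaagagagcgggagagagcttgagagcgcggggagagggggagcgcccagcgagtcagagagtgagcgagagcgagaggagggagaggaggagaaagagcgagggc
Pou3f3 (chr1:42695518-42695767, plus strand): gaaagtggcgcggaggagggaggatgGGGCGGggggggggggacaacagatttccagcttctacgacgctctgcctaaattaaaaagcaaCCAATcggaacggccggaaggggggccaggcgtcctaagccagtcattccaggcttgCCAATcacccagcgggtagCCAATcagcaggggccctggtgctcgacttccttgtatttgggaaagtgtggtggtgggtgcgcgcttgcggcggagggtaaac
Pou3f4 (chrX:110814129-110814378, plus strand): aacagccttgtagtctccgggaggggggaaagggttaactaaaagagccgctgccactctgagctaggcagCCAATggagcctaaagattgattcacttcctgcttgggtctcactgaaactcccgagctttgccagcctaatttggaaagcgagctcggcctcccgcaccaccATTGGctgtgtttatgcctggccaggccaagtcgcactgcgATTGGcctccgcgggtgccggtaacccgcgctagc
The motifs were the octamer ATGCAAAT, the LIM homeodomain core TAATTA, the CCAAT box CCAAT, the GC box GGGCGG, the TATA box TATAAA and the E box CAGCTG. Neither the octamer, held by 1.60% of all 32851 promoters, nor TAATTA, held by 4.84%, nor TATAAA, held by 12.4%, nor CAGCTG, held by 13%, was found in these 3 windows. The CCAAT box was found 3 times in Pou3f3, all on the coding strand, 3 times in Pou3f4, of which 1 on the coding strand, and 2 times in Pou3f2. At least 1 CCAAT box was held by 33.8% of all promoters and 3 or more by 2.79%. A single GC box, a motif of 32.7% of promoters, lay in Pou3f2 and in Pou3f3. GC content was 58.0% in Pou3f4, 60.8% in Pou3f3 and 66.8% in Pou3f2, against a median of 52.4%.

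The KO arrays were of 2 kinds, which sets what the comparison can show. On 28936 clusters the mean of KO replicates 1 to 10 and that of KO replicates 11 to 13 were the same to within 5.67e-05 (median 1.33e-06). The difference between KO and WT therefore rests on KO replicates 11 to 13 against the 12 WT arrays, and KO replicates 1 to 10 bear only on the spread. All comparisons were made in limma with a term for KO replicates 1 to 10, and the fit with genotype alone, which treats all 13 KO arrays as free to inform the mean, is given beside it where its call differs, by gene or as a count over a list. Whether KO replicates 11 to 13 were processed with WT is not given in the sources used here, so a batch and the genotype cannot be told apart. Array medians were 4.64 to 4.76. Lhx5 stood at 7.93 in KO and 7.97 in WT, a difference of -0.04 ± 0.17 (SE, adjusted p = 0.960 in limma), and since the allele keeps its exons this level does not check the labels. Genes of the mammillary and caudal hypothalamus were present on every array, their mean over 15 genes lying between 6.79 and 6.84 on KO replicates 11 to 13, between 6.38 and 7.04 on KO replicates 1 to 10 and between 6.93 and 7.30 on WT arrays. KO replicates 11 to 13 all lay below the WT arrays in this mean.

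None of the 6 genes passed the test between KO and WT. Of 28940 clusters, 7 passed at an adjusted p below 0.05 (0.0242%), and of the 6 POU genes 0 passed. At an unadjusted p below 0.05 the counts were 2995 clusters (10.3%), 1201 of them lower in KO (4.15%), and 0 of the 6 genes. With genotype alone 4825 clusters passed (16.7%), of which 2024 were lower in KO (6.99%), and 1 POU gene, Pou4f1, passed. All 5 class 3 and class 4 genes other than Pou3f1 had lower means in KO, and Pou3f1 a higher one. In tissue RNA, fewer cells of a type and less RNA per cell cannot be told apart.

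Pou4f1, a determinant of sensory and midbrain neurons, had the largest difference. It stood at 4.30, 5.04 and 5.20 on KO replicates 11, 12 and 13, at 3.94 (lowest), 4.71 (median) and 6.21 (highest) on KO replicates 1 to 10, and at 4.62 (lowest), 5.55 (median) and 5.93 (highest) on WT arrays. KO replicate 11 lay below every WT array and all 3 of KO replicates 11 to 13 below the WT median, while KO replicates 12 and 13 lay within the WT range. The means were 4.85 ± 0.64 (SD, n = 13) in KO and 5.45 ± 0.41 (n = 12) in WT. The difference was -0.60 ± 0.33 (SE), with a 95% interval of -1.28 to 0.08 and an adjusted p of 0.554 in limma. The adjusted p was 0.0416 with genotype alone and 0.373 with KO replicates 11 to 13 and WT arrays only. Without KO replicate 11 the difference was -0.33 (adjusted p = 0.859 in limma). An exact two-sided permutation test over the 455 splits of KO replicates 11 to 13 and the WT arrays gave p = 0.0418 (smallest possible 0.0022), not adjusted for the 6 genes so tested. Beside it, the mean of 13 sensory neuron genes was 5.06 to 5.38 on KO replicates 11 to 13, 4.87 to 5.44 on KO replicates 1 to 10 and 4.80 to 5.52 on WT arrays, so the sets overlapped. Of the 13 genes 6 lay under the median level of all clusters, 4.69, in both groups, among them the sensory neuron markers Prph (3.46 in KO and 3.46 in WT), Avil (3.66 and 3.55) and Runx3 (3.87 and 3.93). This is close to the share that a median sets for all clusters. The rest lay above it, among them Neurod4 (7.48 in KO and 7.66 in WT), Neurod1 (7.45 and 7.48) and Isl1 (5.94 and 6.53). All of these named genes were chosen after their values were seen.

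Pou4f3 lay at the low end of the array, its WT mean at percentile 27.1 of all clusters. Its values were 2.62, 3.14 and 3.04 on KO replicates 11, 12 and 13, 2.68, 2.94 and 3.24 (lowest, median, highest) on KO replicates 1 to 10, and 2.83, 3.16 and 3.52 on WT arrays. KO replicate 11 lay below all WT arrays, as did KO replicates 1, 6, 7 and 9, and the other KO values lay within the WT range. The difference was -0.22 ± 0.14 (SE), with a 95% interval of -0.52 to 0.07, an adjusted p of 0.622 in limma and p = 0.191 in the exact permutation test. It was -0.07 without KO replicate 11.

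**Figure D1:**
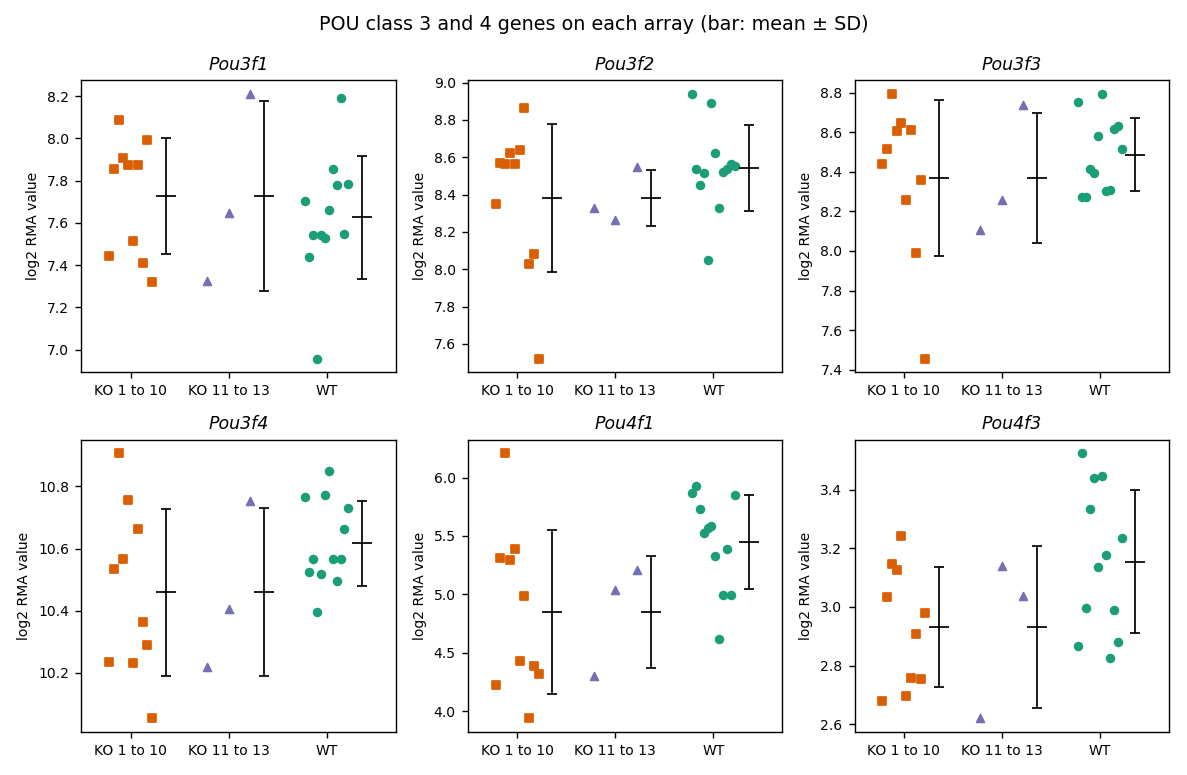
Level of each POU gene (y axis, log2 RMA value, scale set per panel) on every array of KO replicates 1 to 10, KO replicates 11 to 13 and WT (x axis); bars give the mean ± SD of each set. The KO sets have the same mean for every gene, the sets overlap throughout, and KO replicate 10, the rightmost square, is the lowest KO array for the 4 class 3 genes.

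Pou3f4, an X-linked gene of the neural tube and inner ear, had the smallest SD of the 6 over WT arrays (0.14). It stood at 10.22, 10.41 and 10.75 on KO replicates 11, 12 and 13, at 10.05, 10.45 and 10.91 (lowest, median, highest) on KO replicates 1 to 10, and at 10.39, 10.57 and 10.85 on WT arrays. Only KO replicate 11 of KO replicates 11 to 13 lay outside the WT range. The difference was -0.16 ± 0.13 (SE), with a 95% interval of -0.43 to 0.11 and an adjusted p of 0.731 in limma. Without KO replicate 11 it was -0.04 and without KO replicate 13 -0.305. With embryo sex, read from Xist and Y-linked genes, as a further term it was -0.16 ± 0.13, with an adjusted p of 0.730 in limma. By this reading KO replicates 1 to 10 held 3 female and 7 male arrays, KO replicates 11 to 13 held 2 and 1, and WT 8 and 4. The correlations below were not adjusted for sex.

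Pou3f2, the regulator of hypothalamic neuroendocrine neurons, stood at 8.33, 8.26 and 8.55 on KO replicates 11, 12 and 13, at 7.52, 8.56 and 8.86 (lowest, median, highest) on KO replicates 1 to 10, and at 8.05, 8.54 and 8.94 on WT arrays. All of KO replicates 11 to 13 lay within the WT range. The difference was -0.16 ± 0.18 (SE), with a 95% interval of -0.54 to 0.22 and an adjusted p of 0.817 in limma. It was -0.10 without KO replicate 12 and -0.25 without KO replicate 13.

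Pou3f3, which acts with Pou3f2 in cortical neurons, stood at 8.11, 8.26 and 8.74 on KO replicates 11, 12 and 13, at 7.45, 8.48 and 8.80 (lowest, median, highest) on KO replicates 1 to 10, and at 8.27, 8.47 and 8.79 on WT arrays. KO replicates 11 and 12 lay below every WT array and KO replicate 13 near the top of the WT range. The difference was -0.12 ± 0.18 (SE), with a 95% interval of -0.50 to 0.26 and an adjusted p of 0.869 in limma. It was 0.01 without KO replicate 11, so its sign rests on that array, -0.06 without KO replicate 12 and -0.305 without KO replicate 13.

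Pou3f1, best known for its part in Schwann cell myelination, stood at 7.32, 7.65 and 8.21 on KO replicates 11, 12 and 13, at 7.32, 7.86 and 8.09 (lowest, median, highest) on KO replicates 1 to 10, and at 6.96, 7.60 and 8.19 on WT arrays. KO replicate 13 lay just above the highest WT array and the others within the WT range. The difference was 0.10 ± 0.18 (SE), with a 95% interval of -0.28 to 0.48 and an adjusted p of 0.895 in limma. It was -0.14 without KO replicate 13, so here too 1 array sets the sign. It was 0.30 without KO replicate 11, 0.15 without WT replicate 10 and 0.04 without WT replicate 4. The exact permutation p was 0.607 for Pou3f1, 0.310 for Pou3f2, 0.387 for Pou3f3 and 0.169 for Pou3f4.

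**Figure D2:**
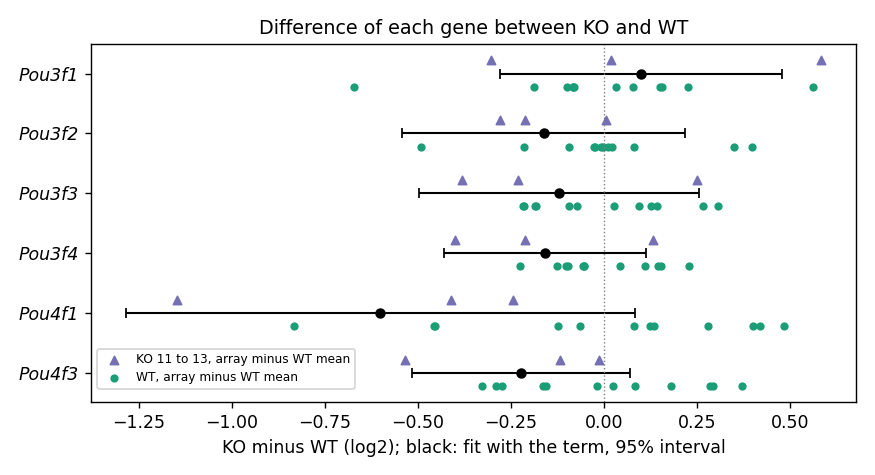
Difference of each POU gene between KO and WT (x axis, log2; black points and bars, fit with the term for KO replicates 1 to 10 and its 95% interval), with each array of KO replicates 11 to 13 (triangles) and of WT (circles) relative to the WT mean. Every interval includes 0, and the lowest triangle for Pou4f1 and Pou4f3 is KO replicate 11.

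The genes varied more between arrays than most clusters of like level. Among the 1000 clusters nearest in mean level, the SD over KO replicates 1 to 10 stood at percentile 99.0 for Pou4f1, 97.6 for Pou3f2, 97.5 for Pou3f3, 96.7 for Pou3f4, 89.6 for Pou3f1 and 81.8 for Pou4f3. The SD over WT arrays stood between percentile 83.2 (Pou3f4) and 93.7 (Pou4f3). KO replicate 10 was the lowest of KO replicates 1 to 10 for Pou3f1, Pou3f2, Pou3f3 and Pou3f4, and KO replicate 3 the highest for Pou3f1, Pou3f3, Pou3f4 and Pou4f1. On KO replicate 10 the mean of 14 neuronal genes (7.30) and that of 12 progenitor genes (9.52) were also the lowest of KO replicates 1 to 10. Their part in the low POU values was not tested.

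The covariation of the genes was asked within each set, since a shift of a whole set does not touch it. Pearson r was computed for 15 pairs of genes over KO replicates 1 to 10 and over WT arrays, with 100000 permutations and adjustment over the 30 tests. Over KO replicates 1 to 10 all 15 pairs had a positive r, with a median of 0.70, and 6 passed. Over WT arrays 10 of 15 were positive, with a median of 0.15, and 1 passed. By Spearman rho 1 pair passed over KO replicates 1 to 10 and 0 over WT arrays. With KO replicate 10 left out, all 15 pairs remained positive over the other 9 arrays, with a median of 0.71. Among all named genes above the median level, high r was also more common over KO replicates 1 to 10, except for Pou4f3. For Pou3f2, 4.576% of them had an r above 0.7 over KO replicates 1 to 10 and 1.285% over WT arrays. The shares were 4.266% and 0.891% for Pou3f3, 3.46% and 0.806% for Pou3f4, 1.744% and 1.069% for Pou3f1, and 2.175% and 0.844% for Pou4f1. For Pou4f3 they were 0.338% and 0.778%.

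Pou3f3 and Pou3f4 were the pair that passed by r in both sets. Over KO replicates 1 to 10 they gave r = 0.82 (permutation p = 0.00162, adjusted 0.0162) and rho = 0.92 (permutation p = 5e-04, adjusted 0.0150). Over WT arrays they gave r = 0.77 (permutation p = 0.00487, adjusted 0.0292) and rho = 0.62 (permutation p = 0.0355, adjusted 0.0969). Without the 2 arrays farthest from the Pou3f3 median, r was 0.95 over KO replicates 1 to 10 (without 8 and 10) and 0.57 over WT arrays (without 1 and 7). With any 1 array left out it lay between 0.78 and 0.87 over KO replicates 1 to 10 and between 0.68 and 0.83 over WT arrays. Of the 10665 ranked genes, 1.32% had a higher r with Pou3f3 than Pou3f4 had over KO replicates 1 to 10, and 0.281% over WT arrays. Both promoters printed above hold 3 CCAAT boxes, and a link of these boxes to the covariation was not tested.

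Pou3f2 had positive r with both of these genes in both sets. Over KO replicates 1 to 10 its r was 0.87 with Pou3f3 (permutation p = 0.00298, adjusted 0.0223) and 0.68 with Pou3f4 (permutation p = 0.0255, adjusted 0.0766). The r of 0.87 became 0.67 without KO replicate 10 and 0.40 without KO replicates 8 and 10, and the rho was 0.53 (permutation p = 0.122, adjusted 0.263), so it rests on those arrays. Over WT arrays r was 0.59 with Pou3f3 (permutation p = 0.0425, adjusted 0.106) and 0.60 with Pou3f4 (permutation p = 0.0359, adjusted 0.0979).

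Pou4f1 had high r with class 3 genes over KO replicates 1 to 10. With Pou3f4 its r was 0.88 over KO replicates 1 to 10 (permutation p = 0.00123, adjusted 0.0162) and 0.15 over WT arrays (permutation p = 0.644, adjusted 0.743). The WT value ran from 0.04 without WT replicate 1 to 0.25 without WT replicate 2. With Pou3f1 it was 0.79 over KO replicates 1 to 10 (permutation p = 0.00912, adjusted 0.0436) and -0.27 over WT arrays (permutation p = 0.389, adjusted 0.530), the WT value being -0.16 without WT replicate 8. Whether the sets differ in r was not tested. The r with Pou3f4 was 0.83 without KO replicates 3 and 10. Between class 3 and class 4 genes, 8 of 8 pairs were positive over KO replicates 1 to 10 (median 0.59) and 3 of 8 over WT arrays (median -0.12).

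**Figure D3:**
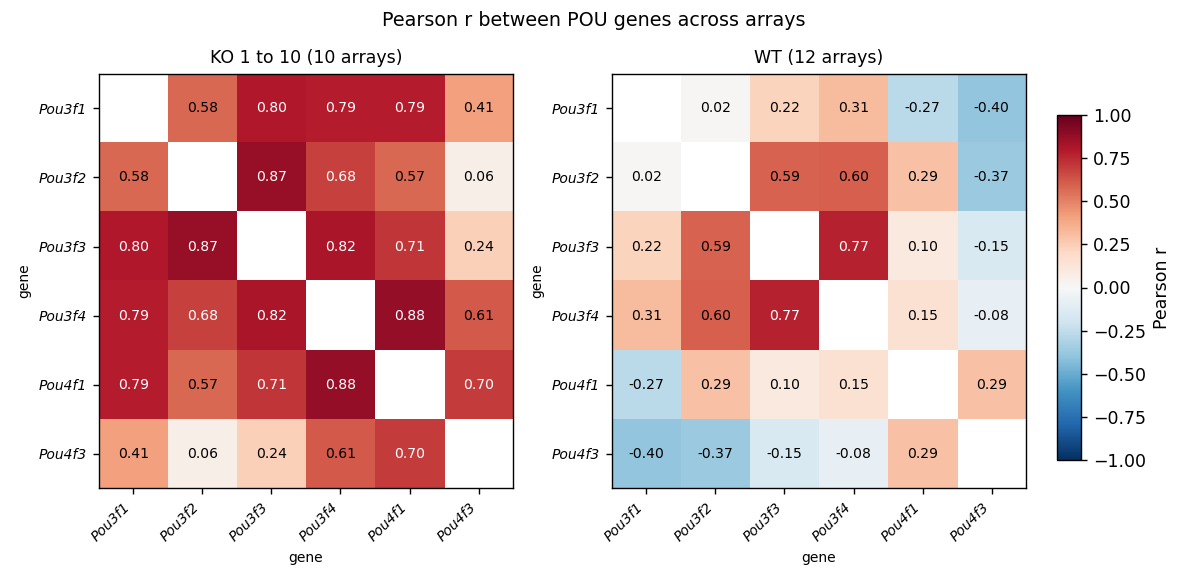
Pearson r between each pair of POU genes (both axes, gene symbols; colour and number give r) over KO replicates 1 to 10 (left) and WT arrays (right). Class 3 pairs lie above 0 in both panels, the lowest being Pou3f1 with Pou3f2 at 0.58 on the left and only 0.02 on the right. The pair of Pou3f3 and Pou3f4 stands at 0.82 on the left and 0.77 on the right.

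The Pou3f1 values of KO replicates 1 to 10 left a gap, from 7.52 to 7.86, that took up 44.1% of their range, with KO replicates 1, 6, 8 and 10 below it. Its r with Pou3f3 was 0.80, with Pou3f4 0.79 and with Pou4f1 0.79 over all 10 arrays (3 of the 6 pairs that passed), and 0.28, 0.23 and 0.36 over the 6 arrays above the gap. The values of the partner genes overlapped across the gap, for Pou3f3 reaching 8.44 below it and starting at 8.36 above it. How far these relations of Pou3f1 rest on the step between the sides was not tested, since fewer arrays over a shorter range can also lower r.

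Each POU gene was then set beside the mean of 14 gene lists, without the POU class 3 and 4 genes themselves, to see which tissue markers moved with it from array to array. Of 168 tests, 6 of 84 passed by r over KO replicates 1 to 10 and 2 of 84 over WT arrays, and by rho 0 of 168. At an unadjusted p below 0.05 by r there were 18 and 12. The lists share arrays and, in part, genes, so the tests are not independent.

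Pou3f1 followed the mean of midbrain and tectum genes in both sets. With the mean of 17 such genes its r was 0.96 over KO replicates 1 to 10 (permutation p = 0.00035, adjusted 0.0386; rho = 0.88, permutation p = 0.00171, adjusted 0.0718) and 0.84 over WT arrays (permutation p = 0.00178, adjusted 0.0386; rho = 0.69, permutation p = 0.0156, adjusted 0.187). The list mean had the same 4 KO arrays at its low side, up to 6.50, against 6.80 and above for the other 6, within which r was 0.77. WT replicate 10, which had the highest list mean of all arrays (7.50), also had the highest Pou3f1 of the WT arrays. Without WT replicates 4 and 10 the WT r was 0.58, and without WT replicate 10 alone 0.74. Of the 17 single genes, 14 had a positive r with Pou3f1 over KO replicates 1 to 10 (median 0.53) and 14 over WT arrays (median 0.64). The highest in both sets was Otx2, a forebrain and midbrain homeobox gene, at 0.88 over KO replicates 1 to 10 and 0.90 over WT arrays. The lowest were Gata3, of midbrain GABAergic neurons, over KO replicates 1 to 10 (-0.33, against 0.17 over WT arrays) and the homeobox gene Barhl1 over WT arrays (-0.14, beside -0.31 over KO replicates 1 to 10). Between KO and WT 0 of the 17 genes passed in limma, 2 were higher and 1 lower in KO at an unadjusted p under 0.05, and 4 were higher and 1 lower past the adjusted threshold with genotype alone. Their median difference was 0.14. The smallest p were those of Barhl1 (-0.79 ± 0.22), Lmx1b (0.34 ± 0.13) and Foxa1 (0.47 ± 0.20), with adjusted p of 0.179, 0.350 and 0.418 in limma.

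Pou3f2 followed the mean of neural progenitor genes. With the mean of 12 such genes its r was 0.89 over KO replicates 1 to 10 (permutation p = 0.00184, adjusted 0.0386; rho = 0.59, permutation p = 0.0797, adjusted 0.355) and 0.76 over WT arrays (permutation p = 0.0013, adjusted 0.0386; rho = 0.78, permutation p = 0.0039, adjusted 0.0979). Without the 2 arrays farthest from its median r was 0.57 over KO replicates 1 to 10 (without 8 and 10) and 0.77 over WT arrays (without 1 and 5). Pou3f3 gave r = 0.91 with the same list over KO replicates 1 to 10 (permutation p = 0.00164, adjusted 0.0386), 0.59 without KO replicates 8 and 10, and 0.70 over WT arrays (permutation p = 0.0138, adjusted 0.116). The single genes of the list did not all run this way. Of the 12, 9 had a positive r with Pou3f2 over KO replicates 1 to 10 (median 0.39) and 10 over WT arrays (median 0.26), and 9 and 8 with Pou3f3 (medians 0.57 and 0.16). The Notch effector gene Hes5 had an r of 0.78 with Pou3f2, 0.87 with Pou3f3 and 0.81 with Pou3f4 over KO replicates 1 to 10, and of 0.76, 0.82 and 0.81 over WT arrays. Hes1, another Notch effector gene, was the lowest of the list for the same 3 genes in both sets, at -0.40, -0.64 and -0.86 over KO replicates 1 to 10 and -0.30, -0.52 and -0.41 over WT arrays. Both were chosen after their values were seen.

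Pou3f4 followed neuronal genes over KO replicates 1 to 10. Its r was 0.86 with the mean of 14 genes of neuronal differentiation (permutation p = 0.00155, adjusted 0.0386) and 0.86 with that of 13 genes of sensory neurons (permutation p = 0.00143, adjusted 0.0386), and without KO replicates 3 and 10 it was 0.85 and 0.83. The rho was 0.89 with each list (permutation p = 0.00114 and 0.00112, adjusted 0.0638 for each). Over WT arrays the same values were 0.42 (permutation p = 0.175, adjusted 0.439) and 0.06 (permutation p = 0.854, adjusted 0.959), and the difference between the sets was not tested. Single arrays moved these WT values, the first between 0.22 (without WT replicate 7) and 0.68 (without WT replicate 11) and the second between -0.14 (without WT replicate 7) and 0.30 (without WT replicate 4). Over KO replicates 1 to 10 the other POU genes also had a positive r with both lists, none of which passed. It ran from 0.43 (Pou4f3) to 0.79 (Pou3f3) with neuronal differentiation and from 0.48 (Pou4f3) to 0.74 (Pou3f3) with sensory neurons.

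Pou4f1 ran against endothelial genes over KO replicates 1 to 10, with r = -0.85 (permutation p = 0.00147, adjusted 0.0386), rho = -0.77 (permutation p = 0.0124, adjusted 0.160) and r = -0.72 without KO replicates 3 and 8. Over WT arrays r was 0.25 (permutation p = 0.460, adjusted 0.736) and rho -0.04 (permutation p = 0.921, adjusted 0.997), and the difference between the sets was not tested. The sign of the WT r rests on WT replicate 11, which had the lowest endothelial mean (6.57) and without which r was -0.29. The endothelial mean over 9 genes was 7.21 to 7.61 on KO replicates 11 to 13, 7.11 to 7.55 on KO replicates 1 to 10 and 6.57 to 7.43 on WT arrays, and its part in the Pou4f1 values was not tested. The negative r was not particular to Pou4f1. Over KO replicates 1 to 10 the other POU genes had r from -0.56 (Pou4f3) to -0.76 (Pou3f4) with the endothelial mean, none of which passed. With the mean of the midbrain and tectum genes, Pou4f1 had an r of 0.82 over KO replicates 1 to 10 (permutation p = 0.00542, adjusted 0.0700) and -0.12 over WT arrays (permutation p = 0.703, adjusted 0.871). Of the 17 single genes, 12 had a positive r over KO replicates 1 to 10 and 5 over WT arrays, the lowest being Gata3 (-0.43) over KO replicates 1 to 10 and Foxa1 (-0.46) over WT arrays. The dorsal midbrain gene Pax3 had an r with Pou4f1 of 0.93 over KO replicates 1 to 10 and 0.78 over WT arrays, and Pax7 of 0.95 and 0.63. Both were chosen after their values were seen. Pax3 stood at 5.22 in KO and 5.82 in WT, a difference of -0.60 ± 0.62 (SE, adjusted p = 0.794 in limma).

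**Figure D4:**
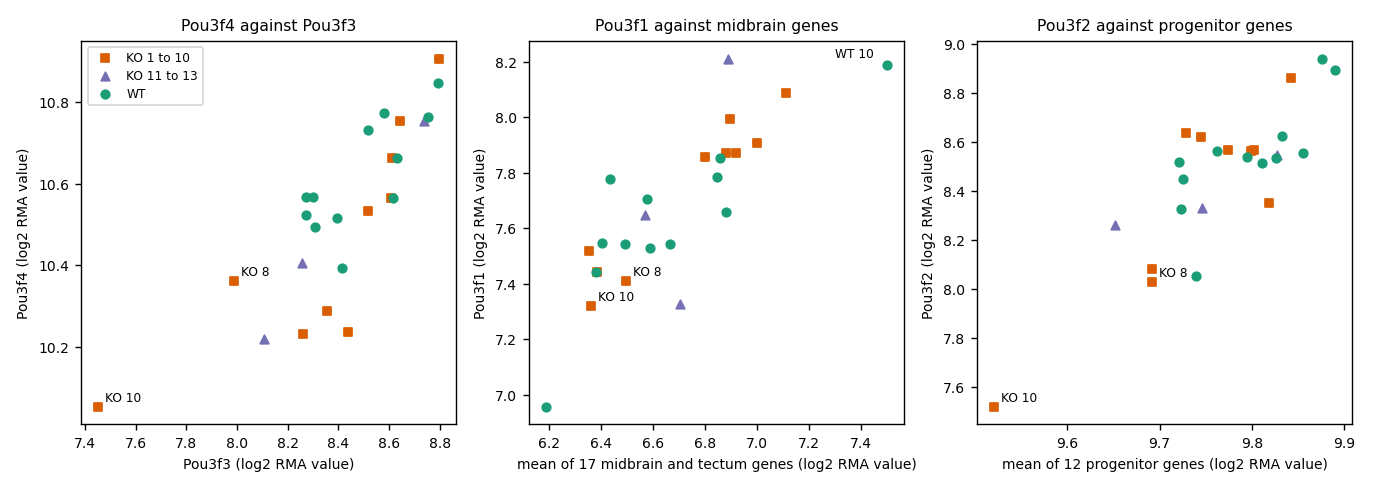
Left, Pou3f4 (y axis) against Pou3f3 (x axis); middle, Pou3f1 (y axis) against the mean of 17 midbrain and tectum genes (x axis); right, Pou3f2 (y axis) against the mean of 12 progenitor genes (x axis); all in log2 RMA values, 1 point per array of KO replicates 1 to 10, KO replicates 11 to 13 and WT. KO replicate 10 lies at the lower left of the left and right panels, and WT replicate 10 has the highest midbrain mean, 7.50.

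The named genes most like each POU gene over WT arrays were ranked among 10665 genes above the median level, or 10666 for Pou4f3, which itself lay below it. These r values chose the genes and carry no test, while those over KO replicates 1 to 10 did not choose them. For Pou3f1 they were the Notch ligand gene Jag1, the Wnt ligand gene Wnt5a and Otx2, with r over KO replicates 1 to 10 of 0.81, 0.89 and 0.88 (ranks 51, 15 and 17), and over WT arrays of 0.91, 0.91 and 0.90. For Pou3f2 the first was the p38 kinase gene Mapk11, with 0.93 over KO replicates 1 to 10 (rank 5) and 0.91 over WT arrays, followed by the adhesion gene Igsf11 (0.63 over KO replicates 1 to 10 and 0.91 over WT arrays) and the lipid transporter gene Mfsd2a (0.68 and 0.91). Dpysl5, a gene of axon guidance, came up for both Pou3f3 (0.89 over KO replicates 1 to 10 and 0.89 over WT arrays) and Pou3f4 (0.86 and 0.91). The others over KO replicates 1 to 10 had r of 0.64 for the neuronal splicing factor gene Nova2 and 0.71 for the kinase gene Mapk6 with Pou3f3, and of 0.80 for the sodium pump subunit gene Atp1b1 and 0.60 for the synapsin gene Syn3 with Pou3f4. The genes chosen for the class 4 genes had lower r over KO replicates 1 to 10. For Pou4f1 these were Ptprf, 5031425E22Rik and Rbm4, with 0.41, 0.38 and 0.34 over KO replicates 1 to 10 and 0.89, 0.89 and 0.85 over WT arrays. For Pou4f3 they were Ptpru, Mir329 and the Slit receptor gene Robo2, with -0.05, -0.39 and 0.13 over KO replicates 1 to 10 and 0.89, 0.87 and 0.84 over WT arrays. Over all ranked genes the median r with each of the 6 lay between -0.06 and 0.05 in either set, while the shares with a high r differed between the sets as given above.

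The other POU genes gave no call. Of 9 in the list, 6 had a cluster of their own, 0 passed, 5 had lower means in KO and the median difference was -0.14, against 0.01 over all clusters. Pou5f2 stood at 5.22 in KO and 5.52 in WT, a difference of -0.30 ± 0.23 (SE, adjusted p = 0.691 in limma). For Pou2f2, of the B cell octamer factors, it was -0.20 ± 0.23 (adjusted p = 0.814 in limma), and for Pou6f1 -0.22 ± 0.26 (adjusted p = 0.819 in limma).

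Partners and targets of class 3 factors had mostly lower means in KO, none of which passed. Of 12 measured genes 0 passed, 11 had lower means in KO, and the median difference was -0.19. Sox1, a progenitor SOX factor, stood at 7.26 in KO and 7.97 in WT, a difference of -0.71 ± 0.32 (SE, adjusted p = 0.442 in limma and 0.0141 with genotype alone). Sox4 and Sox2 had differences of -0.28 ± 0.13 (adjusted p = 0.481 in limma and 0.0209 with genotype alone) and -0.19 ± 0.10 (adjusted p = 0.514 in limma and 0.0295 with genotype alone). With genotype alone 4 of the 12 genes passed, each lower in KO. The mean of the list over arrays had an r of 0.74 with Pou3f2 over KO replicates 1 to 10 (permutation p = 0.0136, adjusted 0.116) and 0.71 over WT arrays (permutation p = 0.00828, adjusted 0.0994).

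Of 10 neuroendocrine genes 0 passed, with a median of 0.08. Otp, which specifies hypothalamic neuroendocrine neurons, stood at 5.24 in KO and 6.52 in WT, a difference of -1.28 ± 0.55 (SE, adjusted p = 0.405 in limma and 0.00970 with genotype alone). Oxt, encoding oxytocin, differed by 0.17 ± 0.10 and Gnrh1 by -0.18 ± 0.11 (adjusted p = 0.562 and 0.585 in limma, and 0.0444 and 0.0549 with genotype alone). Of the 10 genes 5 lay under the median level of all clusters, 4.69, in both groups, the share that a median sets for all clusters. Oxt was among them, at 3.525 in KO and 3.354 in WT, so its difference is one between low values.

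Lists linked to class 4 genes were also without calls. The 13 sensory neuron genes had a median of -0.03, and Isl1, a LIM homeobox gene of these neurons, differed by -0.59 ± 0.38 (SE, adjusted p = 0.625 in limma). The 12 genes of retinal ganglion and hair cells had a median of 0.01, in which Dlx1 (-1.69 ± 0.56), Dlx2 (-1.18 ± 0.43) and Lhx3 (-0.60 ± 0.30) had adjusted p of 0.274, 0.307 and 0.493 in limma, and of 0.00178, 0.00298 and 0.0239 with genotype alone. The 8 genes of placode and crest ganglia had a median of 0.07. Among the remaining lists, each with 0 calls, the medians were -0.16 for 14 neuronal genes, -0.03 for 12 progenitor genes, -0.16 for 15 mammillary genes, -0.69 for 8 genes of telencephalon and retina, 0.16 for 12 mesenchymal genes, 0.10 for 9 endothelial genes and 0.28 for 7 erythroid genes. In the mammillary list the smallest p were those of Foxb2 (-1.13 ± 0.21), Nkx2-4 (-0.72 ± 0.20) and Barhl1, with adjusted p of 0.0546, 0.179 and 0.179 in limma. In the list of telencephalon and retina they were those of the eye and forebrain homeobox genes Six3 (-1.06 ± 0.29), Rax (-1.27 ± 0.39) and Vax1 (-0.80 ± 0.30), with adjusted p of 0.179, 0.242 and 0.331 in limma. In the progenitor list the smallest were those of the cyclin gene Ccnd1 (-0.30 ± 0.08, adjusted p = 0.179 in limma), Sox2 and Top2a (-0.05 ± 0.06, adjusted p = 0.821 in limma). With genotype alone 5 mammillary genes, 2 progenitor genes and 5 genes of telencephalon and retina passed as lower in KO, and 1 of telencephalon and retina, 1 mesenchymal and 2 endothelial genes as higher. Of the mesenchymal genes 11 and of the erythroid genes 7 had higher means in KO. The mesenchymal mean was 7.40 to 7.95 on KO replicates 11 to 13, 7.01 to 8.12 on KO replicates 1 to 10 and 6.80 to 7.80 on WT arrays, and the erythroid mean 8.99 to 9.54, 8.22 to 9.78 and 8.54 to 9.80. Their part in the lower POU means of KO was not tested.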

How the data were processed

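Expression was measured on 25 Affymetrix Mouse Gene 1.1 ST arrays (13 KO, 12 WT). The authors deposited log2 values made by RMA, for which their processing notes name affy, R 2.7.0 and Affymetrix Expression Console 1.0. An adjustment between batches is not given in the sources used here. In 11 of the deposited columns some cells hold other values, out of the RMA range. The table held 35556 probe sets. The 14 misprinted cells above 14, none in a POU gene, were set missing, and 6616 unannotated probe sets with low identifiers were left out, as were 0 columns. Clusters were named through the platform annotation, 21218 with a single symbol (21185 matched to RefSeq genes by Entrez number), 1881 with several and 5841 with none. The brightest cluster stood for a gene.

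The POU genes and the gene lists were chosen with earlier results of these data known. Genes outside the POU family were named by smallest p (3 from each list in which a gene had an unadjusted p under 0.05, fewer from most others) or by highest r over WT arrays (3 for each POU gene, among genes above the median level), and any further gene is marked as picked once its values were known. The limma model (version 3.58.1, R 4.3.3) held genotype and a term for KO replicates 1 to 10. Variances were moderated, tests two-sided and p-values adjusted after Benjamini-Hochberg across the 28940 clusters. Correlations used 100000 permutations, adjusted over 30 tests for pairs and 168 for lists. In simulated data of 28928 clusters, 100 were changed 1.5-fold and 100 were changed 2-fold. The fit with the term found 79 and 95 of these, with 10 false calls. Genotype alone found 96 and 99, with 1783 false calls. The simulated KO replicates 1 to 10 were given the mean of the other KO arrays. The excess of false calls with genotype alone is therefore built in and does not test the real arrays. How covariation between clusters would change these counts was not tested. The changed clusters were drawn at random from all clusters. The POU genes varied more than most clusters of like level, so these shares do not hold for them. Promoter windows were searched in Python 3.11.15, and figures drawn with matplotlib 3.10.9. The number of arrays limits the precision, and the p-values measure the spread between these samples.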

Additional observations from a re-analysis of the deposited data

How the results depend on the processing

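The count of POU genes passing was 0 with the term for KO replicates 1 to 10, 1 (Pou4f1) with genotype alone and 2 (Pou4f1, adjusted p = 0.0102, and Pou4f3, adjusted p = 0.0282, in limma) with the replicate block and genotype alone. It was 0 under the other 38 alternatives, among them the replicate block beside the term, KO replicates 11 to 13 with WT only, embryo sex, a repeated quantile normalization, centring, array weights and each array left out in turn. The adjusted p of Pou4f1 ran from 0.0102 to 0.859 and its difference from -0.78 to -0.33. Same-numbered KO and WT arrays correlated at -0.33 to 0.43 after removal of group means, above 0.1 for 4 of 12 numbers, and 1 of 24 arrays was closest to its own number, which does not make these numbers a pairing.

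Signs were reversed for Pou3f1, at -0.18 with the replicate block and the term, and at -0.14 without KO replicate 13 within a range of -0.14 to 0.30 over arrays left out, and for Pou3f3, which ran from -0.305 to 0.00926 over arrays left out, the highest without KO replicate 11. Of 120 correlations recomputed by rho, other scalings or without 2 arrays, 9 went from an unadjusted p below 0.05 to above it and 4 the other way. With the replicate block and the term, Pou3f2 was -0.262, Pou3f3 -0.391 and Pou3f4 -0.384. No gene had another cluster to try. Pou4f3 lay below the median level and has no value with dim clusters left out.

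Settings added after the data were seen were restored decimal points, retained low identifiers, WT and KO replicates 10 left out together, each array left out of a correlation, and Pou3f1 within the KO arrays above its gap.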
